A study of Homo sapiens with 50 samples.

Results

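The genes described here are 38 S phase and DNA replication genes, measured in H1299 cells, a human non-small cell lung carcinoma line, and in H1299shRAD9 cells, the same line with a stable shRNA against RAD9. They were taken as a list of gene names, and each gene was read from the brightest of its probes on an Agilent one-color array. All 38 were on the array, among 25940 named genes. Each line was studied in 5 groups of 5 arrays, so that there were 10 groups and 50 arrays in all.

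All cells were harvested 4 hours after exposure. The control group (CTL) was sham irradiated and received 0 Gy. In the other groups the dish held cells that were hit by 1 Gy of α particles (accelerated helium ions) and, on a second surface of the same dish, unirradiated bystander cells. Dishes were sorted by the share of bystander cells with micronuclei, which are small bodies of DNA left outside the nucleus after damage. Bystander cells with a high share were called bystander positive (BP) and those at the background level bystander negative (BN). The directly irradiated cells of the corresponding dishes were DBP and DBN. The 5 groups existed in both lines. H1299 was untransfected, while H1299shRAD9 carried the hairpin in a retroviral vector and was selected with puromycin as stable clones. Effects of the hairpin, the vector, the selection and the clone cannot be told apart in differences between the lines. The hairpin line was made from stable transfectants that were used interchangeably, and the labels do not record which transfectant gave a sample. H1299 cells in these dishes were confluent at irradiation. The samples are bulk RNA, so fewer cells in S phase and less RNA per S phase cell cannot be told apart.

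Replication begins with licensing, in which CDC6 and CDT1 load the MCM helicase onto origins in G1, and geminin (GMNN) keeps CDT1 from doing so again. In S phase the helicase is activated by factors such as the GINS complex, primase and DNA polymerases copy the strands, and the PCNA clamp holds the polymerases and calls in the proteins that rebuild chromatin behind the fork. Most of these genes are transcribed in late G1 and S phase under E2F factors. Genes of G2 and mitosis instead rely on CHR elements, which are read by the DREAM and MuvB complexes. RAD9 is a subunit of the 9-1-1 clamp, which is loaded where DNA is damaged or forks stall and helps activate the ATR and CHK1 checkpoint.

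By role, the members were 9 licensing genes (MCM2, MCM3, MCM4, MCM5, MCM6, MCM7, CDC6, CDT1 and GMNN), 10 fork genes (PCNA, FEN1, GINS2, RFC2, RPA2, POLD3, POLA1, PRIM1, TIPIN and DSCC1), 4 genes of nucleotide supply and uracil removal (TYMS, RRM1, RRM2 and UNG), 7 genes of chromatin and histone supply (UHRF1, NASP, HELLS, CHAF1B, SLBP, CASP8AP2 and ATAD2), 6 genes of replication-coupled repair (DTL, EXO1, BLM, USP1, RAD51AP1 and WDR76) and 2 others of the E2F program (E2F8 and CDCA7). They were compared with 66 other DNA replication genes and 54 G2/M genes.

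The promoters set the S phase genes apart from the G2/M genes. RefSeq promoter windows (GRCh38.p14, 250 bases before to 50 bases after the start) were found for 30 members, and not for MCM4, MCM5, RPA2, WDR76, POLD3, ATAD2, DSCC1 and E2F8. The windows were searched on both strands for the E2F letters TTTCCCGC, TTTGGCGC, TTTCGCGC and TTTGGGGC, for the CCAAT box CCAAT and for the CHR letters TTTGAA. Some E2F forms overlap on opposite strands, as in MCM6, so promoters rather than matches were counted. E2F letters were present in 16 of the 30 promoters (53.3%), against 4.22% of all 27305 promoters and 3 of the 44 G2/M promoters (6.82%). The CHR letters were present in 1 member promoter, that of RRM1 (3.33%), against 30 of the 44 G2/M promoters (68.2%) and 15.4% of all promoters. CCAAT was about as common in members (66.7%) as in G2/M genes (68.2%), and less common in all promoters (35.7%). A match describes letters only, and a window without a match says nothing of the factor.

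**Figure D1:**
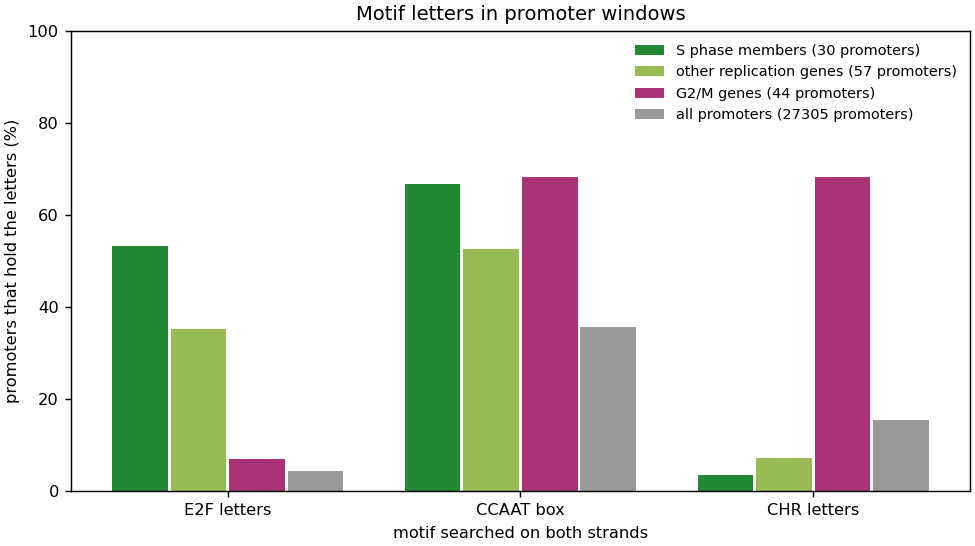
The bars give the percentage of promoter windows that hold each set of letters on either strand, for the S phase members, other replication genes, G2/M genes and all promoters. E2F letters reach 53.3% in the members and 6.82% in the G2/M genes, while the CHR letters reach 3.33% and 68.2%.

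The following windows show these letters in capitals, upstream of the start and on the strand of the gene. UHRF1 and CDT1 are members that passed the test described below, and MCM3, MCM7 and PCNA are core helicase and clamp genes.
UHRF1: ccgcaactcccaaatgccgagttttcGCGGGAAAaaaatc
CDT1: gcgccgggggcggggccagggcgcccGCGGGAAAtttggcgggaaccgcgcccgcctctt
MCM3: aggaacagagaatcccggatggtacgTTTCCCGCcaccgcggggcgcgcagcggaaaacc
MCM7: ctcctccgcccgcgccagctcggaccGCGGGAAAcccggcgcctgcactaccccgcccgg
PCNA: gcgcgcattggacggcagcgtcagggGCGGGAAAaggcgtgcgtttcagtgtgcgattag

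Their positions are chr19:4909461-4909500 (UHRF1, plus strand), chr16:88803728-88803787 (CDT1, plus), chr6:52284883-52284942 (MCM3, minus), chr7:100101551-100101610 (MCM7, minus) and chr20:5126648-5126707 (PCNA, minus). In contrast, the windows of CENPA, CDCA8 and HJURP, which encode a centromeric histone, a subunit of the Aurora B complex and the chaperone that deposits the centromeric histone, hold the CHR letters. All 3 genes fell in directly irradiated H1299shRAD9 cells, as did other G2/M genes that are not shown. Only windows with the letters upstream of the start could be shown. These 3 therefore do not give the share of the fallen genes that hold them.
CENPA: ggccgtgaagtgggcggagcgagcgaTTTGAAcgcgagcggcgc
CDCA8: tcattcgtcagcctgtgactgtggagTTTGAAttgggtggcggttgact
HJURP: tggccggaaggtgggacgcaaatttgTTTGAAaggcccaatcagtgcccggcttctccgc

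These lie at chr2:26786012-26786055 (CENPA, plus), chr1:37692467-37692515 (CDCA8, plus) and chr2:233854613-233854672 (HJURP, minus). Among the called members, the CDC6 window holds TTTGGCGC 7 bases after the start, and those of TIPIN and UNG hold no E2F letters.

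Every member was well above background on all 50 arrays and had no missing value, so none was lost to a filter. Levels are given as log2 of the processed signal minus the median of the array over its probes. The median level of the members was 6.06, against 2.90 over the 20100 features tested. The highest signals were those of MCM7 (10.69), NASP (9.61) and TYMS (9.49), and the lowest those of CDC6 (-0.57), WDR76 (1.97) and CASP8AP2 (2.29). The signal of a probe depends on its sequence, so these do not order the amounts of RNA. Over the 50 arrays, the SD was largest for RRM2 (0.85), the small subunit of ribonucleotide reductase, WDR76 (0.55) and RAD51AP1 (0.54). It was smallest for RRM1 (0.21), the large subunit of the same enzyme, MCM2 (0.24) and GMNN (0.24). Within groups the median SD was 0.31 for the members and 0.33 for all features.

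The labels and the arrays were checked first. RAD9A, the target of the hairpin, was lower in H1299shRAD9 CTL than in H1299 CTL by a log2 difference of -0.36 (SE 0.12, 77.9% of the H1299 level), and did not pass the test (limma, adjusted p = 0.0561). In the other conditions RAD9A stood at 79% (DBP), 91.7% (BP), 92.6% (BN) and 104% (DBN) of the H1299 level, and did not pass there either (limma adjusted p of 0.303 to 0.943). Keratin genes KRT8 and KRT18 and the filament gene VIM were well above background on 50 of 50 arrays. Markers of other cell types were detected too, with PTPRC above background on 50 arrays, CD3E on 38, COL1A1 and COL1A2 on 8 and PECAM1 on 2. The arrays lay on 13 slides, of which 2 held both lines, and no slide held CTL of both lines. The share of probes well above background was 55.5% to 83.7%. The array that stood apart was H1299 DBN replicate 1, at 83.7%, on which the members had a median of -1.09 relative to their means, while the other arrays lay between -0.44 and 0.33. The main values of H1299 DBN are therefore given with and without it, and in paired fits without replicate 1 of H1299 altogether.

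**Figure D2:**
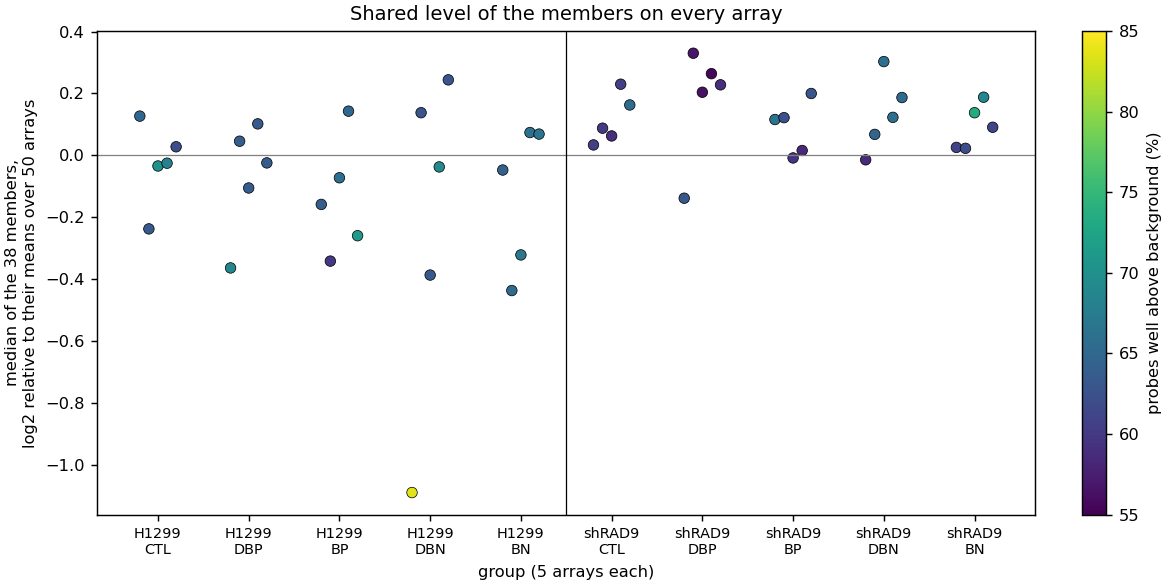
Each point is one array and gives the median of the 38 members, each relative to its own mean over the 50 arrays (log2), by group, with color for the share of probes well above background. H1299 DBN replicate 1 lies at -1.09, below the other arrays.

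The members rose and fell together from array to array. After group means were removed, the correlation of 2 members over the 50 arrays had a median r of 0.55 over 703 pairs, and 95.7% of pairs were positive. The corresponding medians were 0.40 for the other replication genes, 0.42 for the G2/M genes and 0.12 over all pairs of 15494 genes. These are descriptions, since the genes share arrays, RNA samples and slides. They include H1299 DBN replicate 1, on which the median of the members was -1.09, and were not computed without it. An array on which most members are low together raises such correlations. The 6 MCM2 to MCM7 genes, which form one ring, had a median of 0.64 with no negative pair, and SLBP, which binds histone mRNA, and DSCC1, a subunit of a PCNA loader, were the most alike (r = 0.93). PRIM1, a primase subunit, followed the other members most closely (median r = 0.68).

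A few members moved apart from the rest. UHRF1, which reads hemimethylated DNA behind the fork, had a median r of 0.14 with the other members, followed by RRM2 (0.25), WDR76 (0.26) and POLD3 (0.26). RRM2 and WDR76 were alike (r = 0.90), and RRM2 was negatively related to CDT1 (r = -0.40) and to RRM1 (r = -0.35). These values include 4 H1299 arrays on which RRM2 was lowest, at 1.53, 1.77, 2.86 and 2.93. There WDR76 was at -0.21, 0.34, 0.63 and 1.06 and CDT1 at 7.91, 8.52, 8.53 and 8.45. The correlations were not computed without those arrays.

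The first comparison asked how the unirradiated lines differ. In H1299shRAD9 CTL 3 members were higher than in H1299 CTL and 0 were lower: TIPIN, UHRF1 and CDC6. A gene was called where limma gave p under 0.005 and a Benjamini-Hochberg false discovery rate under 10% over the 20100 features. By this rule 6.89% of all features were higher and 6.08% lower, so 3 of 38 members is near the background share. The member median was 0.12, against 0.06 for all features, and 30 of 38 differences were above 0, as were 11406 of the 20100 of all features.

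TIPIN encodes the partner of TIMELESS, which holds the helicase and polymerases together at stalled forks and helps activate CHK1. Its levels were 6.0, 6.22, 6.44, 6.46 and 6.31 in H1299shRAD9 CTL, and 5.55, 5.26, 5.65, 5.51 and 5.83 in H1299 CTL. The groups did not overlap, and the log2 difference was 0.73 (SE 0.13, 1.66-fold, limma adjusted p = 0.00675). UHRF1 was at 6.71, 6.89, 6.42, 6.45 and 6.36 in H1299shRAD9, against 6.04, 5.70, 5.82, 5.99 and 5.86 in H1299. Again all 5 arrays of the hairpin line were above those of the parental line, with a difference of 0.68 (SE 0.13, 1.6-fold, limma adjusted p = 0.00762). A second UHRF1 probe gave 0.69 (SE 0.18, adjusted p = 0.0249). CDC6, the licensing ATPase, was dim, at -0.50, -0.11, -0.07, -0.31 and -0.25 in H1299shRAD9 and at -0.80, -1.24, -0.64, -0.54 and -0.63 in H1299. These groups did not overlap either, though narrowly, with -0.50 as the lowest H1299shRAD9 level and -0.54 as the highest H1299 level. The log2 difference was 0.52 (SE 0.15, limma adjusted p = 0.0332). But 12 of 15 alternative settings left CDC6 short of the threshold, among them slide as a random block (limma adjusted p = 0.116). TIPIN and UHRF1 passed in 15 of 15 settings. Without replicate 1 of both lines 7 members passed, which were TIPIN, UHRF1, UNG, CDT1, MCM7, NASP and MCM3, and CDC6 was not among them. There 14.1% of all features passed in either direction.

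By role, 1 of 9 licensing genes, 1 of 10 fork genes and 1 of 7 chromatin genes passed, and 0 of the 4 nucleotide, 6 repair and 2 E2F program genes. MCM3, next among the licensing genes, gave 0.32 (SE 0.10, adjusted p = 0.0542), and RPA2, a subunit of the single-strand binding protein, 0.24 (SE 0.11, adjusted p = 0.152). UNG, the uracil glycosylase, gave 0.48 (SE 0.17, adjusted p = 0.0687), TYMS, which makes dTMP, 0.07 (SE 0.12), and the histone chaperone gene NASP 0.32 (SE 0.13, adjusted p = 0.0969). Of the repair genes the smallest p-values were those of the helicase gene BLM (0.29, SE 0.11) and DTL, which targets CDT1 for destruction in S phase (0.20, SE 0.10), and of the E2F program those of the repressor gene E2F8 (0.28, SE 0.11) and CDCA7 (0.34, SE 0.16). All of these values were limma estimates that did not pass. Second probes of RPA2 and CDCA7 gave -0.02 (SE 0.13) and 0.01 (SE 0.18).

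Of the 66 other replication genes, 4 rose and 1 fell in H1299shRAD9 CTL, against 6.89% and 6.08% of all features. MCM10, which joins the helicase to the polymerases, rose by 0.90 (SE 0.20, adjusted p = 0.0151), MCM9 by 0.55 (SE 0.11) and BRCA1 by 0.49 (SE 0.11). POLE, the leading strand polymerase, fell by 0.53 (SE 0.13, adjusted p = 0.0235). Of the 54 G2/M genes 0 rose and 4 fell, which were FAM64A (-0.78), PSRC1 (-0.48), TACC3 (-0.61) and NDC80 (-0.39). These counts lie near the background shares and are not read as results about the lists. The 5′ to 3′ index of an array, a measure of RNA length that compares the most 5′ with the most 3′ probe of 1778 transcripts, was -0.24 to -0.07 in H1299shRAD9 CTL and -0.16 to 0.19 in H1299 CTL. Its part in the differences was not tested. Since no slide held CTL of both lines, line and slide cannot be told apart here.

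The same contrast was then made in the irradiated and bystander groups, which are other arrays of the same lines. Only BP had a slide that held both lines in the same condition. In DBP, DBN and BN line and slide cannot be told apart. TIPIN was called in 3 of these 4 comparisons, UNG in 2, and UHRF1 and CDT1 in 1 each. In DBP 1 of 38 members was higher, where 1.86% of all features were. In BP 3 were higher (background 4.05%), in DBN 0 (background 1.37%) and in BN 3 (background 4.48%), and 0 members were lower in any of the 4. These shares lie near their background or somewhat above it, and are not read as a result about the members. In DBN limma gave 8 members an unadjusted p under 0.05, all higher in H1299shRAD9, where 12.5% of all features were. Without H1299 DBN replicate 1 there were 5, where 11.4% of all features were.

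In BP, TIPIN was at 6.39, 6.22, 6.22, 6.26 and 6.52 in H1299shRAD9 and at 5.80, 4.81, 5.64, 5.87 and 5.59 in H1299, a log2 difference of 0.78 (SE 0.19, limma adjusted p = 0.0476). UNG, which removes uracil from DNA, was at 8.17, 8.07, 8.14, 8.32 and 8.45 against 7.55, 7.55, 7.53, 7.84 and 7.23. For both genes every array of the hairpin line was above every array of the parental line, and UNG differed by 0.69 (SE 0.15, limma adjusted p = 0.0253). CDT1, the licensing factor destroyed in S phase, was at 8.21, 8.28, 8.06, 8.15 and 8.37 against 7.71, 7.91, 7.40, 7.78 and 7.36, and differed by 0.58 (SE 0.15, limma adjusted p = 0.0487). Without replicate 3 of both lines 0 members passed (limma adjusted p of TIPIN, UNG and CDT1 0.134, 0.101 and 0.141), and without replicate 5 also 0 (0.197, 0.132 and 0.219), while UNG alone passed without replicate 1. Without replicate 4 CDT1 did not pass (0.12). The differences lay between 0.62 and 0.88 for TIPIN, 0.56 and 0.74 for UNG, and 0.48 and 0.64 for CDT1 as each replicate was left out.

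One slide held BP arrays of both lines, and there H1299shRAD9 replicate 1 stood above H1299 replicate 5. The paired levels were 6.39 and 5.59 for TIPIN, 8.17 and 7.23 for UNG, and 8.21 and 7.36 for CDT1. The median difference of the 38 members on this slide was 0.41, from 1 slide only.

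In BN, TIPIN was at 6.08, 6.18, 6.09, 6.59 and 6.33 in H1299shRAD9 and at 5.46, 5.06, 5.38, 5.82 and 5.89 in H1299 (difference 0.73, SE 0.17, limma adjusted p = 0.0333). UNG was at 7.85, 8.02, 8.19, 8.5 and 8.17 against 7.57, 7.27, 7.27, 7.76 and 7.71 (difference 0.63, SE 0.16, limma adjusted p = 0.0392). Neither gene overlapped between the lines. UHRF1 was at 6.63, 6.42, 6.26, 6.26 and 5.91 against 5.83, 5.65, 5.56, 5.94 and 5.90, where the lines overlapped by 1 array of H1299shRAD9, and differed by 0.52 (SE 0.15, limma adjusted p = 0.0621). Without replicate 3 of both lines 0 members passed (limma adjusted p of TIPIN, UNG and UHRF1 0.104, 0.145 and 0.186). TIPIN alone passed without replicate 2 or 4, TIPIN and UNG without replicate 1, and TIPIN and UHRF1 without replicate 5.

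In DBP, TIPIN was at 5.76, 6.34, 6.61, 6.59 and 6.37 in H1299shRAD9 and at 4.95, 5.11, 5.79, 5.89 and 5.80 in H1299. Replicate 1 of H1299shRAD9 lay among the H1299 arrays, and the difference was 0.83 (SE 0.23, limma adjusted p = 0.0795). UHRF1, with the next smallest p, gave 0.61 (SE 0.18, limma adjusted p = 0.101), and its groups did not overlap. Without replicate 1 of both lines 3 members passed, TIPIN, UNG and MCM7, where 7.54% of all features did in either direction. Without replicate 2, 3, 4 or 5 TIPIN did not pass (limma adjusted p = 0.182, 0.228, 0.191 and 0.205), with a difference of 0.73 to 0.89.

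In DBN, the smallest p-values were those of TIPIN, at 0.94 (SE 0.27, limma adjusted p = 0.104), and UNG, at 0.80 (SE 0.24, limma adjusted p = 0.112), neither of which passed. Without H1299 DBN replicate 1, TIPIN was 0.69 (SE 0.18, limma adjusted p = 0.0696) and passed, UNG was 0.67 (SE 0.20, limma adjusted p = 0.0989) and did not, and the member median went from 0.41 to 0.19, while that of all features went from 0.16 to 0.04.

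**Figure D3:**
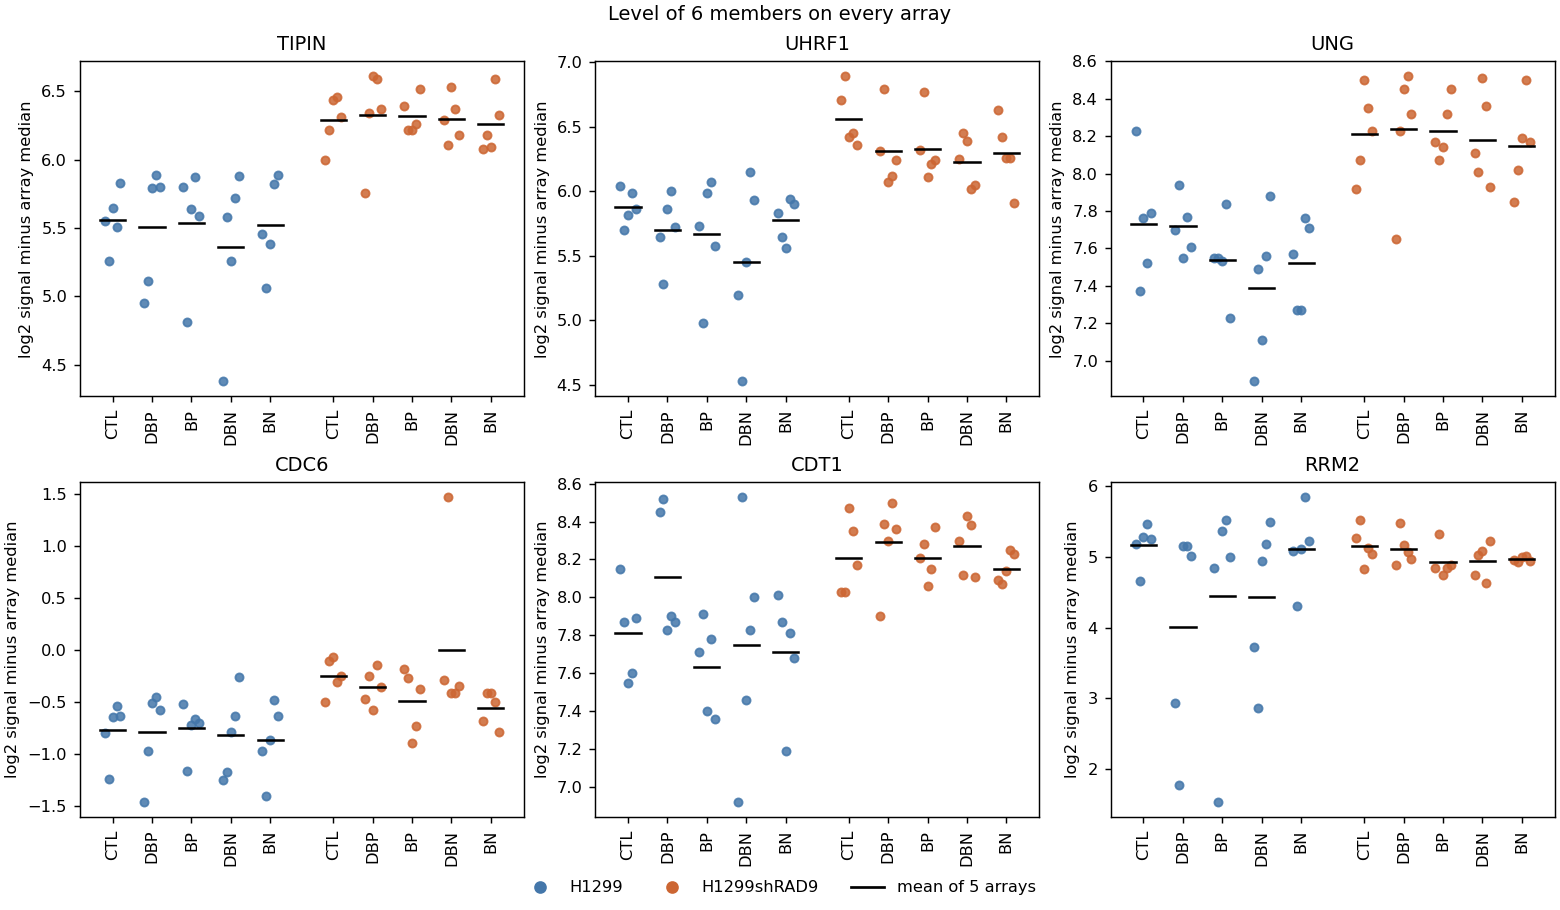
Each panel plots one gene, with its level on every array (log2 signal minus array median) by group and the mean of 5 arrays as a bar, H1299 in blue and H1299shRAD9 in orange. TIPIN lies between 5.76 and 6.61 in H1299shRAD9 and between 4.38 and 5.89 in H1299, and RRM2 falls below 4 on 5 H1299 arrays.

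Over all 5 conditions, 26 of the 38 members had a higher mean in H1299shRAD9 in every one. All features leaned the same way, with 11406, 12499, 13024, 13524 and 13284 of 20100 higher in CTL, DBP, BP, DBN and BN. Of the 38 members 30, 34, 33, 36 and 33 were. The share of all features higher in all 5 conditions was not counted. TIPIN was highest, with differences of 0.73 to 0.94, followed by UHRF1 (0.52 to 0.78), UNG (0.48 to 0.80), CDCA7 (0.34 to 0.74), MCM7 (0.33 to 0.65) and PCNA (0.29 to 0.49). These rest on the brightest probe of each gene. In CTL the second probes of CDCA7, MCM7 and PCNA gave 0.01 (SE 0.18), 0.02 (SE 0.12) and 0.11 (SE 0.15). Their brightest probes gave 0.34, 0.37 and 0.29 there. Second probes of RPA2, MCM5 and HELLS gave -0.02, -0.24 and -0.03 in CTL, and that of UHRF1 0.69. Without H1299 DBN replicate 1, 23 members were higher in all 5, and the ranges were 0.69 to 0.83 for TIPIN, 0.52 to 0.72 for UHRF1, 0.48 to 0.69 for UNG, 0.34 to 0.45 for CDCA7, 0.33 to 0.46 for MCM7 and 0.16 to 0.49 for PCNA. The exceptions were led by RRM1, PRIM1 and RAD51AP1, which were higher in 1 condition each. The median over the members was 0.12, 0.27, 0.24, 0.41 and 0.25 in CTL, DBP, BP, DBN and BN, against 0.06, 0.10, 0.12, 0.16 and 0.13 for all features. Relative to all features it was 0.06, 0.17, 0.12, 0.25 and 0.12, and 0.07, 0.14, 0.05, 0.14 and 0.05 under quantile normalization, which brought the median of all features to about 0.

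On single arrays TIPIN was again the member whose lines were most apart. It was at 4.38, 5.59 and 5.89 (lowest, median and highest) over the 25 H1299 arrays and at 5.76, 6.31 and 6.61 over the 25 H1299shRAD9 arrays. Of the H1299shRAD9 arrays, 24 were above every H1299 array for TIPIN, 19 for UHRF1, 15 for MCM3, 14 for MCM7, 13 for CDCA7, 11 for UNG and 6 for PCNA. For 17 members, among them RRM1, TYMS, PRIM1 and CDT1, 0 arrays were. The same count over all features was not made, so these are descriptions of single genes.

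Differences between lines were also summarized by role, as a description with no test between roles. In the 5 conditions the median difference of the 9 licensing genes was 0.08, 0.13, 0.25, 0.42 and 0.27 (CTL, DBP, BP, DBN and BN), and that of the 6 helicase genes MCM2 to MCM7 0.06, 0.11, 0.25, 0.37 and 0.26, of which 0 passed in any condition. Fork genes had medians of 0.09 to 0.34, chromatin genes of 0.17 to 0.36, repair genes of 0.14 to 0.42 and nucleotide genes of 0.02 to 0.34. The highest medians in CTL, DBN and BN were those of the 2 E2F program genes, E2F8 and CDCA7, with 0.31, 0.35, 0.27, 0.59 and 0.39. Without H1299 DBN replicate 1 the medians in DBN were 0.29 for licensing, 0.11 for fork, 0.12 for nucleotide, 0.06 for chromatin, 0.20 for repair and 0.33 for the E2F program genes, and 0.21 for MCM2 to MCM7. The 16 members with E2F letters had medians of 0.24, 0.38, 0.29, 0.47 and 0.31, and the 14 members with a promoter window but no E2F letters 0.04, 0.24, 0.20, 0.26 and 0.15. In DBN these were 0.25 and 0.06 without the array that stood apart. This split is a description, and TIPIN and UNG are on the side without the letters.

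**Figure D4:**
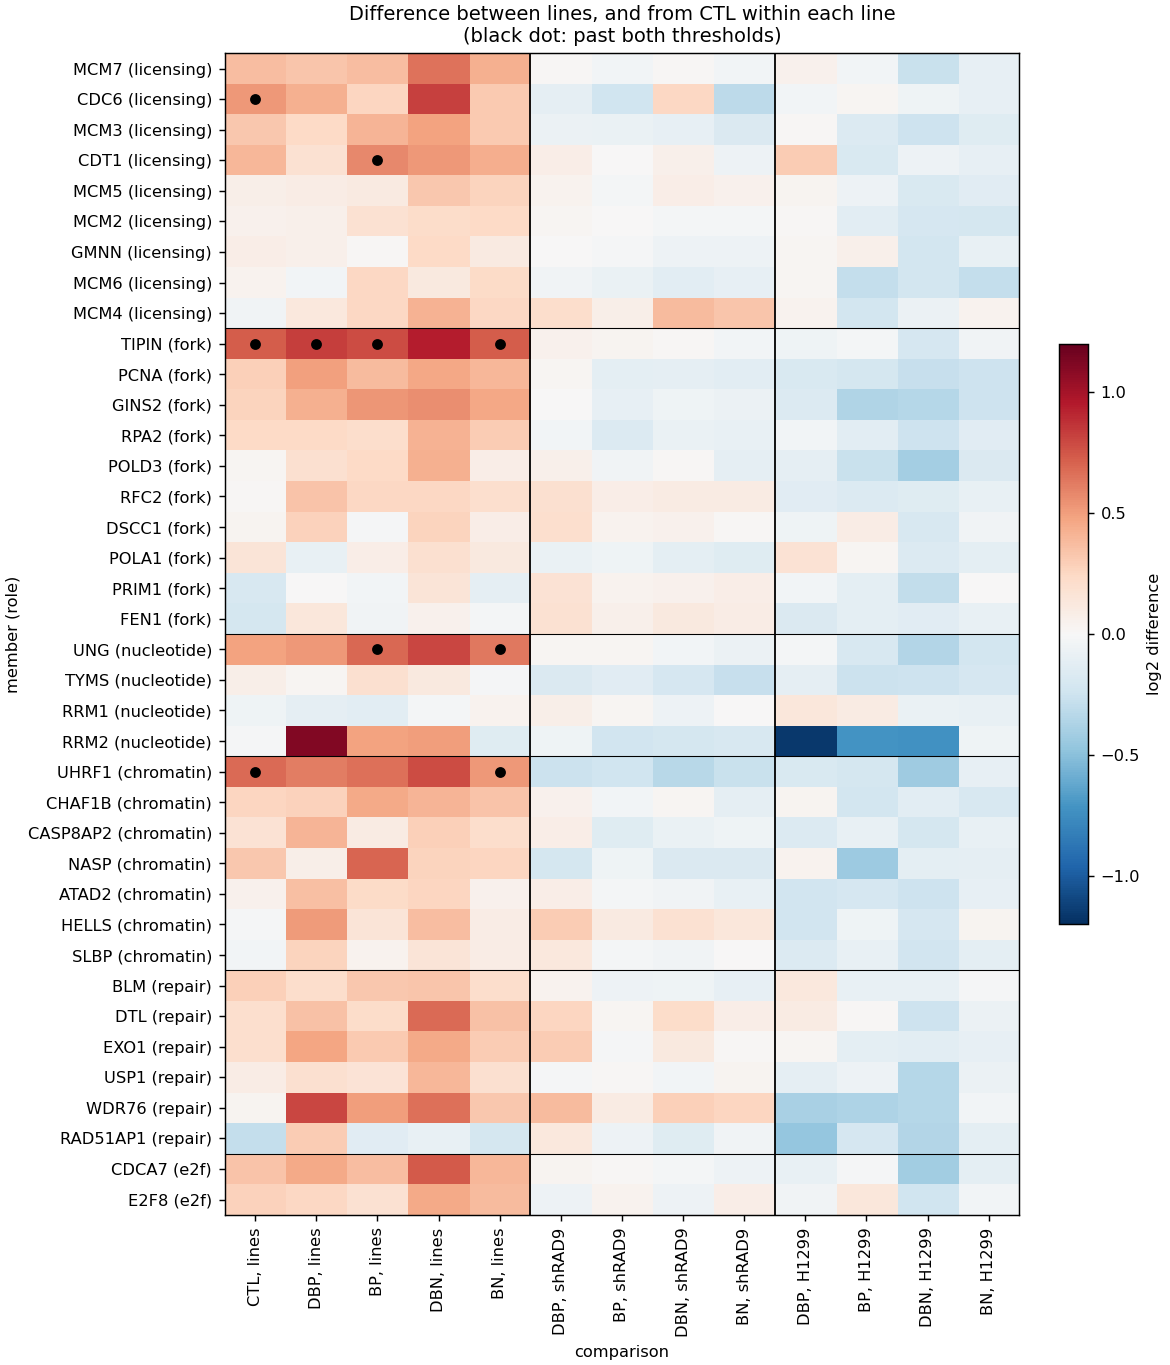
Rows are the 38 members by role and columns the comparisons, with color for the log2 difference (H1299shRAD9 minus H1299 on the left, each group minus CTL in H1299shRAD9 in the middle and in H1299 on the right) and a black dot where both thresholds were passed. The 10 dots lie in the columns between lines, 4 of them on TIPIN.

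The second set of comparisons asked how irradiation and the bystander signal changed these genes within each line. It shares CTL between the 4 comparisons of a line. The arrays were paired by replicate number, and the limit on p was 0.006, with the same 10% limit on the false discovery rate. In H1299shRAD9 0 of 38 members passed in DBP (1.3% of all features passed), BP (1.62%), DBN (2.8%) and BN (0.0299%). In H1299 0 of 38 passed in DBP (0.0348%), BP (0%), DBN (0.00995%) and BN (0%). At an unadjusted limma p under 0.05 there were 5, 2, 4 and 6 members in H1299shRAD9 DBP, BP, DBN and BN, against 13.9%, 10.8%, 14.3% and 13.5% of all features. In H1299 there were 1, 0, 1 and 1, against 5.57%, 5.67%, 3.28% and 3.43%.

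The members with the smallest p-values in H1299shRAD9 were WDR76, which is linked to DNA repair, at 0.38 (SE 0.12, adjusted p = 0.216), and the exonuclease gene EXO1 at 0.30 (SE 0.09, adjusted p = 0.22) in DBP, and UHRF1 at -0.24 (SE 0.09, adjusted p = 0.354) and RRM2 at -0.23 (SE 0.09, adjusted p = 0.384) in BP. In DBN they were MCM4, at 0.38 (SE 0.11, adjusted p = 0.153), and UHRF1, at -0.33 (SE 0.10, adjusted p = 0.163), and in BN MCM4, at 0.33 (SE 0.08, adjusted p = 0.178), and CDC6, at -0.31 (SE 0.08, adjusted p = 0.203). These limma values did not pass. Without replicate 1 the 2 members EXO1 (0.35) and RFC2, a clamp loader subunit (0.31), passed in DBP, where 4.91% of all features did. UHRF1 was lower than CTL on average in all 4 groups, by 0.26, 0.24, 0.33 and 0.27 on the log2 scale in DBP, BP, DBN and BN, and these 4 values share the CTL arrays. The 5′ to 3′ index moved with them, from -0.24 to -0.07 (median -0.18) in CTL to medians of -0.01, -0.01, 0.02 and 0.01 in the same 4 groups, and its part was not tested.

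MCM4, a subunit of the helicase ring, was at 5.97, 6.13, 6.06, 6.02 and 6.0 in H1299shRAD9 CTL. It was at 6.18, 6.29, 6.80, 6.36 and 6.48 in DBN and at 6.21, 6.49, 6.58, 6.33 and 6.23 in BN. Neither group overlapped with CTL, though neither difference passed the test across all features. Both differences share the CTL arrays, and the share of all features without overlap was not counted. The median 5′ to 3′ index was -0.18 in CTL, 0.02 in DBN and 0.01 in BN, and its part was not tested.

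The precision of these comparisons sets what could be seen. The median 95% half-width of a member's interval was 0.22, 0.22, 0.22 and 0.20 in H1299shRAD9 DBP, BP, DBN and BN, and 0.36, 0.36, 0.56 and 0.24 in H1299. Over the 38 members the intervals ran from -0.68 to 0.84 in H1299shRAD9 and from -2.07 to 0.62 in H1299.

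RRM2 had the largest differences from CTL in H1299. It makes deoxynucleotides together with RRM1 and is the subunit whose level follows S phase. It was at 5.19, 4.66, 5.29, 5.47 and 5.25 in H1299 CTL, at 2.93, 1.77, 5.16, 5.16 and 5.01 in DBP and at 4.84, 1.53, 5.37, 5.52 and 5.00 in BP. In DBN it was at 3.72, 2.86, 4.94, 5.18 and 5.50, and in BN at 5.09, 4.3, 5.12, 5.85 and 5.22. The low values came from replicates 1 and 2, and all 25 H1299shRAD9 arrays lay between 4.63 and 5.53.

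The log2 difference was -1.16 in DBP (SE 0.40, adjusted p = 0.795), -0.72 in BP (SE 0.41, adjusted p = 0.823) and -0.73 in DBN (SE 0.29, adjusted p = 1), and 0 of these passed limma. Without replicate 2 it was -0.73 in DBP, -0.12 in BP and -0.46 in DBN, and without replicate 1 it was -0.55 in DBN. The 4 arrays with the lowest RRM2 (1.53, 1.77, 2.86 and 2.93) were also the 4 with the lowest 5′ to 3′ index of all 50, at -0.35, -0.45, -0.41 and -0.28. The fifth lowest RRM2 array, H1299 DBN replicate 1, had an index of 0.06. WDR76 was at -0.21, 0.34, 0.63 and 1.06 on the same 4 arrays, while CDT1 was at 7.91, 8.52, 8.53 and 8.45. The part of the index in these values was not tested.

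The remaining H1299 members with the smallest p were CDT1 in DBP (0.30, SE 0.14), NASP (-0.44, SE 0.20) and GINS2, a subunit of the GINS complex (-0.36, SE 0.19), in BP, UHRF1 in DBN (-0.43, SE 0.26, and -0.33 without replicate 1), and MCM6 (-0.29, SE 0.11) and MCM2 (-0.21, SE 0.11) in BN, none of which passed. In DBN all 38 members were below CTL on average, as were 14522 of the 20100 of all features. The member median was -0.22, against -0.10 for all features. Without replicate 1 of H1299, which removes the array that stood apart, 14 of 38 were below and the median was 0.05, against 0.04 for all features.

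Some G2/M genes fell in directly irradiated cells, where 0 of the S phase genes passed. In H1299shRAD9 DBP 10 of the 54 G2/M genes were lower than CTL and 0 were higher, and in DBN 12 were lower and 0 higher. In DBP these included CDCA2 (-0.80, SE 0.09), CDCA8 (-0.81, SE 0.09) and AURKA, the mitotic kinase (-0.76, SE 0.09), each with an adjusted p of 0.0258, and PSRC1 (-1.03, SE 0.12), HJURP (-0.85, SE 0.11) and CENPA (-0.87, SE 0.12). Of all features, 0.557% were lower in DBP and 0.846% in DBN. In H1299 DBP 3 were lower, AURKA (-1.18, SE 0.15), CENPA (-1.04, SE 0.14) and PSRC1 (-1.13, SE 0.15), with an adjusted p of 0.0807 each, where 0.0348% of all features were. In H1299 DBN 0 passed and 30 were lower at an unadjusted limma p under 0.05, where 2.7% of all features were. On average 54 of 54 were below CTL there, as were 14522 of the 20100 of all features, and the G2/M median was -0.61. Without replicate 1, 51 of 54 were below, with a median of -0.36. In bystander cells 0 of 54 passed in either line, with 0 to 4 genes at an unadjusted limma p under 0.05. Of all features 3.43% to 13.5% were under it in these 4 comparisons. The medians of the G2/M and S phase genes were -0.24 and 0.04 in H1299shRAD9 DBP, -0.33 and -0.03 in DBN, 0.01 and -0.02 in BP and 0.03 and -0.05 in BN. In H1299 they were -0.51 and -0.03 in DBP, -0.61 and -0.22 in DBN, -0.14 and -0.12 in BP and -0.11 and -0.10 in BN. The difference between the lists was not tested. In H1299shRAD9 the median of the index named above was -0.18 in CTL, -0.01 in DBP, 0.02 in DBN, -0.01 in BP and 0.01 in BN. Its part in the G2/M values was not tested.

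**Figure D5:**
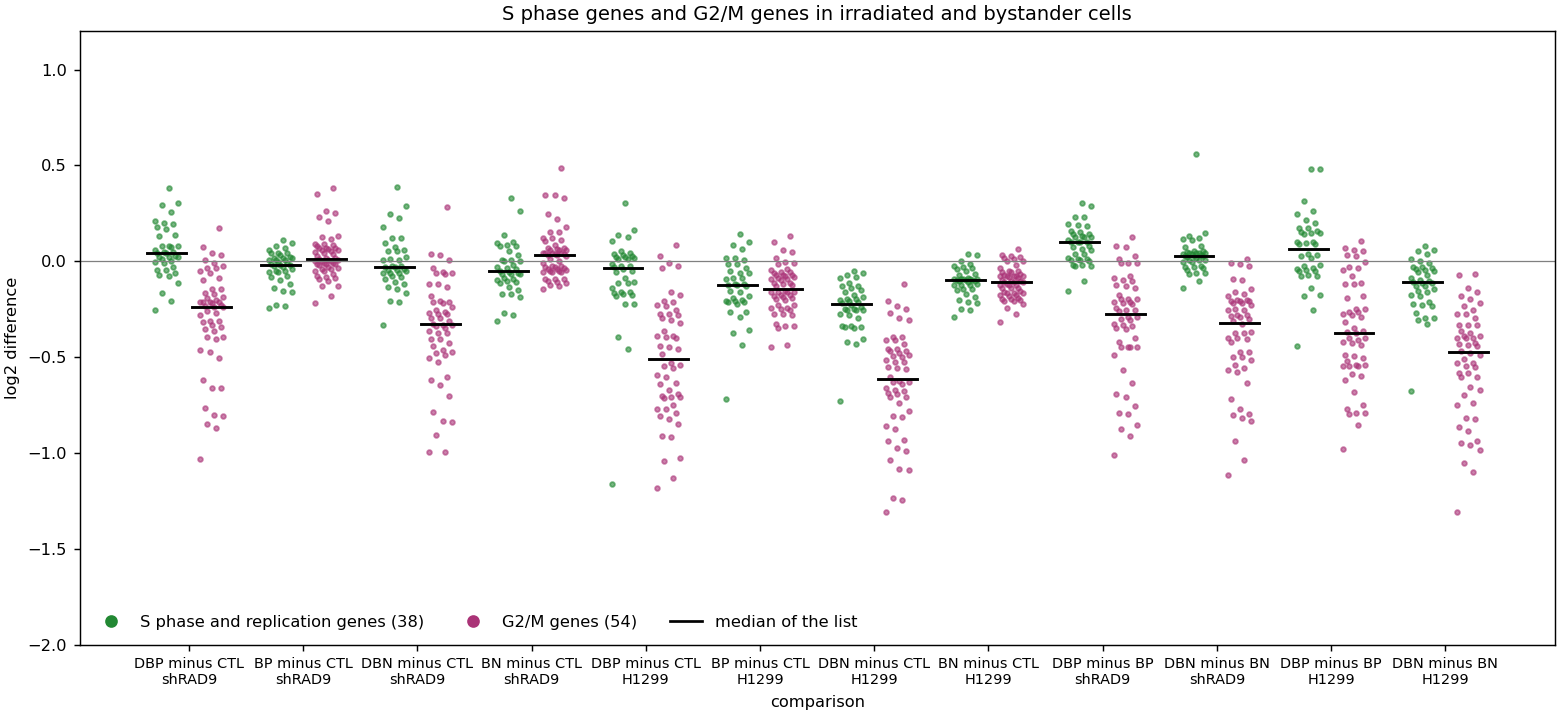
Each point is one gene and gives its log2 difference in the comparison named below it, with the 38 S phase genes in green, the 54 G2/M genes in purple and the median of each list as a bar. The G2/M medians lie at -0.24 to -0.61 in directly irradiated against CTL cells, while those of the S phase genes lie between -0.22 and 0.04.

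Comparing the directly irradiated cells with the bystander cells of the same dishes, which does not use CTL, 0 of 38 members passed in any of the 4 comparisons (0.0796% of all features in both H1299shRAD9 comparisons, 0% in H1299 DBP minus BP and 0.00498% in H1299 DBN minus BN). At an unadjusted limma p under 0.05 there were 2, 1, 2 and 1 members in DBP minus BP and DBN minus BN of H1299shRAD9 and of H1299, against 4.13%, 2.22%, 6.93% and 2.7% of all features. The smallest p-values were those of EXO1 (0.31, SE 0.10) and CASP8AP2, which is needed for histone gene expression (0.23, SE 0.10), in H1299shRAD9 DBP minus BP. In H1299 they were CDT1 (0.48, SE 0.13, adjusted p = 0.656) and NASP (0.48, SE 0.19) in DBP minus BP and RRM2 (-0.68, SE 0.28) and UHRF1 (-0.33, SE 0.24) in DBN minus BN. Without replicate 1 of H1299 the last 2 were -0.51 (SE 0.29) and -0.25 (SE 0.24), and the member median in DBN minus BN went from -0.11 to 0.11, with 30 of 38 members above 0, while that of all features went from -0.06 to 0.10.

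In H1299shRAD9 DBN minus BN they were CDC6 (0.56, SE 0.25) and E2F8 (-0.14, SE 0.09). CDC6 was at -0.29, 1.47, -0.41, -0.41 and -0.35 in DBN and at -0.68, -0.41, -0.41, -0.50 and -0.79 in BN, so the value rested on replicate 2, and without it the difference was 0.23 (SE 0.13). The G2/M genes were lower in the directly irradiated cells here too, with 6 of 54 in H1299shRAD9 DBP minus BP and 7 in DBN minus BN, medians of -0.28 and -0.32, and S phase medians of 0.10 and 0.03.

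Dishes whose bystanders responded were then compared with those whose bystanders did not. In DBP minus DBN and BP minus BN of both lines 0 of 38 members passed, and 0% of all features. At an unadjusted limma p under 0.05 there was 1 member, MCM4, in H1299shRAD9 BP minus BN (-0.26, SE 0.11), and 0 in the other 3, against 0.473% and 0.363% of all features in H1299shRAD9 and 0.498% and 1.52% in H1299. The next smallest there was WDR76 (-0.17, SE 0.11). In DBP minus DBN they were RAD51AP1 (0.27, SE 0.23) and SLBP (0.18, SE 0.16) in H1299shRAD9 and DTL (0.36, SE 0.25) and UNG (0.33, SE 0.24) in H1299, and in H1299 BP minus BN they were NASP (-0.33, SE 0.25) and MCM4 (-0.26, SE 0.20). Without H1299 DBN replicate 1, DTL and UNG were both at 0.20 (SE 0.20 and 0.19), and the member median in H1299 DBP minus DBN went from 0.19 to -0.02. These comparisons were unpaired, although same-numbered arrays deviated together in 3 of the 4, the exception being H1299 BP minus BN. With the replicate number as a block 0 members passed in any of the 4 and 0 had an unadjusted limma p under 0.05, where 1.49%, 0.925%, 4.03% and 3.21% of all features did (DBP minus DBN and BP minus BN of H1299shRAD9, then of H1299). MCM4 in H1299shRAD9 BP minus BN was then at -0.26 (SE 0.12).

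Whether the lines responded differently was tested by the interaction of line and irradiation. In DBP, BP and BN 0 of 38 members and 0% of all features passed, and in DBN 0 of 38 members and 0.0149% of all features. At an unadjusted limma p under 0.05 there were 2, 0, 1 and 2 members in DBP, BP, DBN and BN, against 7.75%, 6.51%, 7.03% and 7.3% of all features. The smallest p-values were those of WDR76 (0.78, SE 0.31, adjusted p = 0.632) and RRM2 (1.12, SE 0.49) in DBP, NASP (0.38, SE 0.24) and MCM4 (0.29, SE 0.21) in BP, WDR76 (0.63, SE 0.30, adjusted p = 0.711) and DTL (0.48, SE 0.23) in DBN, and MCM4 (0.29, SE 0.11) and WDR76 (0.30, SE 0.13) in BN. In DBN 37 of 38 members were above 0, as were 13652 of the 20100 of all features, with medians of 0.21 and 0.10. Without replicate 1 of H1299, 15 of 38 members were above 0, with a median of -0.03 against -0.05 for all features. WDR76 and DTL were then at 0.54 (SE 0.30) and 0.34 (SE 0.18). WDR76 and RRM2 were low on the 4 H1299 arrays with the lowest 5′ to 3′ index, where the other members except CDT1 were not listed. The part of the index in the interaction values was not tested.

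Among the 66 other replication genes, 2 passed against CTL. CLSPN, the claspin gene, which carries the signal from ATR to CHK1, was higher than CTL in H1299shRAD9 BP (0.55, SE 0.09, adjusted p = 0.0362), where 1.49% of all features were, and in DBN (0.69, SE 0.13, adjusted p = 0.066), where 1.96% were. DBF4, the activator of the CDC7 kinase, was higher in BP (0.61, SE 0.11, adjusted p = 0.0402). Between the lines, H1299shRAD9 was higher for DNMT1 (1.34, SE 0.34) and E2F2 (0.69, SE 0.19) in BP, DBF4 (1.22, SE 0.25) and MCM10 (1.29, SE 0.35) in DBN, and MSH6 (0.42, SE 0.12), E2F2 (0.63, SE 0.18) and MCM9 (0.47, SE 0.14) in BN, while 0 of 66 passed in DBP. In DBN, DBF4 passed without H1299 DBN replicate 1 and MCM10 did not. In the other comparisons with CTL, between surfaces and between dishes 0 of 66 passed limma, with 0 to 7 genes at an unadjusted p under 0.05. The medians of this list between the lines were 0.10, 0.21, 0.19, 0.38 and 0.19 in CTL, DBP, BP, DBN and BN, and the value in DBN was 0.20 without that array.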

How the data were processed

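RNA of 50 samples (10 groups of 5, named by the labels) was hybridized to one-color Agilent arrays, and the deposited values are the scanner's processed signal intensity per spot, background-corrected per the file headers, with flags for outlier spots and for signal above background. The authors also deposited a table of 9502 features on a log2 scale, used only as an alternative, whose columns followed the scanner log2 values with slopes of 0.9972 to 0.9997 and had medians of 8.857 to 9.301. Spots of a probe were averaged, outlier-flagged spots were left out, log2 was taken and the median of each array over non-control probes was subtracted, after the methods of the study. A feature was kept unless it was an outlier or not well above background on 25% or more of the 50 arrays, which left 20100 features for 15819 genes. Each gene was read from its brightest probe.

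limma 3.58.1 in R 4.3.3 (lmFit and eBayes) was fitted per comparison on all 20100 features with Benjamini-Hochberg adjustment over all of them, as a stand-in for the random-variance test named in the methods. In 25 comparisons, groups of one line were paired by replicate number where the study names a paired test, and lines and dishes of different response were unpaired. Same-numbered arrays deviated together (every correlation over 0.1) in H1299shRAD9 against CTL, in H1299 DBP and BN against CTL, between surfaces of H1299shRAD9 and of H1299 DBP dishes, and, in unpaired fits, in DBP minus DBN of both lines (lowest 0.29 and 0.48) and BP minus BN of H1299shRAD9 (0.13). They did not between the lines, in H1299 BP minus BN (-0.26), in H1299 BP (lowest -0.17) and DBN (-0.11) against CTL or H1299 DBN minus BN (-0.04). The code was tested on simulated data. The number of arrays limits the precision, and no depth applies.

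The 38 members, the other lists and the tests were chosen with earlier results of these data known. Every called member was named, or the 2 with the smallest p where none or 1 was called, with 2 members per role in CTL. Other scalings, filters, blocks and left-out replicates were tried, and the fits without H1299 DBN replicate 1 were chosen after seeing the data. Promoters were read from RefSeq. A few genes are not reported here.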

Additional observations from a re-analysis of the deposited data

Results flagged for a closer look

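Of 70 groups of 5 arrays, the level of 1 array lay apart from the other 4 in 5 groups, by a gap of over 0.71 of the range of the group, which chance gives in about 1 of 20 groups. The members' median level over an array was -0.14 in H1299shRAD9 DBP replicate 1, against 0.20 for the nearest array of the group. TIPIN was at 4.81 in H1299 BP replicate 2, against 5.59 for the nearest. CDC6 was at 1.47 in H1299shRAD9 DBN replicate 2, against -0.29 for the nearest. RRM2 was at 5.32 in H1299shRAD9 BP replicate 2, against 4.89, and at 1.53 in H1299 BP replicate 2, against 4.84. The last array has the lowest RRM2 and the lowest WDR76 of the 50.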

How the results depend on the processing

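Of the counts of members called, 357 values under the alternatives stayed within 1.5 times the main count and 36 moved, and of the medians 379 stayed and 14 moved. Most main counts were 0, and a 0 that remained 0 is among those that stayed. A median stayed where it moved by less than an SD of the arrays' member medians, or of their paired differences. Of the values of called members, 82 kept their call, 60 kept their direction without passing and 0 reversed. Between the lines the count of 3 in CTL lay between 2 and 7 as each replicate was left out, that of 1 in DBP between 0 and 3, that of 3 in BP between 0 and 3, that of 0 in DBN between 0 and 1 and that of 3 in BN between 0 and 2. That of 0 in H1299shRAD9 DBP against CTL lay between 0 and 2. In DBP between the lines it was 0 under quantile normalization, under scaling to the 75th percentile, under normexp, with no background criterion and with the authors' processed values, and 3 where one fit held all groups. In BP it was 1 under quantile normalization, no background criterion and the authors' values and 6 where one fit held all groups. In DBN it was 2 under 75th percentile scaling, 1 under quantile normalization, the 1.3-fold criterion, the authors' values and the replicate block, and 8 where one fit held all groups, and 1 without H1299 DBN replicate 1 alone. In BN it was 1 under quantile normalization and 0 under normexp and the authors' values. It was 1 for H1299 DBP against CTL where one fit held all groups, and 1 for H1299shRAD9 DBP minus DBN with slide as a fixed block.

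The member median between the lines in CTL was -0.04 under normexp, 0.30 for the 16 members that passed the 1.3-fold criterion and 0.24 for the 10 members in the authors' table. Under normexp it was 0.02 in H1299shRAD9 BN against CTL, -0.36, -0.32 and -0.96 in H1299 DBP, BP and BN against CTL, 0.73 in H1299 DBN minus BN, 0.64 in H1299 BP minus BN, 0.98 between the lines in BN, and 0.45, 0.32 and 1.01 in the interactions of DBP, BP and BN. The median of all features under normexp was -0.06 between the lines in CTL and 0.05 in H1299shRAD9 BN against CTL. It was -0.21, -0.19 and -0.65 in H1299 DBP, BP and BN against CTL. In H1299 DBN minus BN it was 0.49, in H1299 BP minus BN 0.40 and between the lines in BN 0.57. In the interactions of DBP, BP and BN it was 0.25, 0.23 and 0.72. The member median was 0.06 between the lines in BP under quantile normalization. The cause was not tested for any of these. Removing the replicate block changed no count of members in the 16 paired comparisons. Slide as a random block could be fitted in 21 of 25 comparisons and as a fixed block in 20. The arrays limit what could be seen: the median half-width of a member's 95% interval was 0.20 to 0.56 against CTL.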
